A study of Mus musculus with 4 samples.

Results

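The genes described here were the subunits of the transcription factor NF-kB and the IkB family proteins that bind and regulate them: *Rel*, *Rela*, *Relb*, *Nfkb1* and *Nfkb2* for the subunits, and *Nfkbia*, *Nfkbib*, *Nfkbie*, *Nfkbid* and *Nfkbiz* for the genes named as inhibitors. They are listed by name as a family, with no threshold on a measured value, although the family was picked with earlier results of these data known. All 10 were found among the 55367 gene symbols of the count tables. The transcripts were read by bulk RNA-seq in sorted CD4+ T cells of the spleen from C57BL/6 mice, in 2 WT libraries and 2 libraries labelled *Satb1* conditional knockout (cKO). SATB1 helps to fold chromatin in T cell nuclei, and the comparison asks which transcripts differ in CD4+ T cells when its gene is deleted. The methods of the study give the knockout as *Satb1* F/F:*Thpok-cre*, in which a Cre driven by *Thpok* acts from commitment to the CD4 lineage onwards, so the deletion is not limited to regulatory T cells (Tregs). The labels give no age, sex, treatment, or floxed or Cre allele for the WT mice, and the methods give age and mixed sexes only for the mice of the study as a whole. The study calls the libraries biological replicates, and its statistics section says that dots on summary graphs are independent mice unless otherwise specified, but the labels name no mouse for a library, and p-values measure only the spread between these libraries.

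NF-kB acts as a dimer. In resting cells the dimers are kept in the cytoplasm by IkB proteins, and a signal through the antigen receptor or a TNF family receptor activates the IKK kinases, which mark IkB for destruction and let the dimer enter the nucleus. In T cells this system serves activation, survival and, through c-Rel, the development of Tregs. Several of its own parts, *Nfkbia*, *Nfkb1*, *Nfkb2*, *Rel* and *Relb* among them, are textbook NF-kB targets, which closes feedback loops. A transcript level says nothing of how much of a dimer is in the nucleus.

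Every one of the 10 members had a higher mean level in the cKO libraries, where 49.8% of all tested genes had a log2 fold change above 0, and none was past the threshold of an adjusted p under 0.05, where 4.3% of all tested genes were. *Nfkbia* differed by 1.42-fold and *Nfkb2* by 1.39-fold, with adjusted p values of 0.0517 and 0.0516, which just miss it. *Nfkb1*, which encodes the precursor of p50, followed at 1.30-fold with an adjusted p of 0.0764. *Nfkbib* and *Nfkbiz*, at 1.05-fold each, had libraries of the genotypes that overlapped.

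The promoters of *Nfkbia* and *Nfkb2*, the members with the smallest p values, are shown because NF-kB is known to act on both genes, and that of *Nfkbib*, a member with overlapping genotypes, is set beside them. Sequences are from the RefSeq promoter table on GRCm38.p6, from 250 bases before to 50 bases after a start site, 5′ to 3′ on the strand of the gene. Capitals mark every match to the kappaB motif, the 10-base consensus bound by NF-kB dimers, which was searched on both strands with overlapping matches joined into 1 run. *Nfkbia* lies at chr12:55492598-55492897 on the minus strand, the first start site of *Nfkb2* at chr19:46304487-46304786 on the plus strand and *Nfkbib* at chr7:28766595-28766894 on the minus strand.
Nfkbia: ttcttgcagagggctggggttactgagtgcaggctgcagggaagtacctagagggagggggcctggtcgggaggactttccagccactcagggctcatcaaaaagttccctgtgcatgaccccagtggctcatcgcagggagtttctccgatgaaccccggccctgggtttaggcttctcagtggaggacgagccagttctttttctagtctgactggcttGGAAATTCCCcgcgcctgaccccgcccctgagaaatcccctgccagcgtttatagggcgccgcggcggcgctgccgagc
Nfkb2: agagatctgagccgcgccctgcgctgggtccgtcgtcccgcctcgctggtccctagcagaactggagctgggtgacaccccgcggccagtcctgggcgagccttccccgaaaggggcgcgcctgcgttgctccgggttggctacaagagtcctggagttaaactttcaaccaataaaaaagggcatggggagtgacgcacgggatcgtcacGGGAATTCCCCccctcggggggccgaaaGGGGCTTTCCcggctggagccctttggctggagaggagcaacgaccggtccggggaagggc
Nfkbib: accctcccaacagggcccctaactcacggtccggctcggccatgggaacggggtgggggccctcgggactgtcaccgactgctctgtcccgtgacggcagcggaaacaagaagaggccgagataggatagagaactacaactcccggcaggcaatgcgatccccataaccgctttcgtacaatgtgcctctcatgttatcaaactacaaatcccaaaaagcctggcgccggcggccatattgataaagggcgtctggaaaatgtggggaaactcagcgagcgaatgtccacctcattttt

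The *Nfkbia* window held 1 match, which began 29 bases before the start site. The *Nfkb2* window held 2, which began 39 and 11 bases before it, and the *Nfkbib* window held none. The table had an entry for 7 of the 10 members, and 5 of these 7 had a match in at least 1 of their windows, against 9.55% of the 27025 genes in the table. Counted by window, 7 of 11 member windows held a match, against 8.46% of all 32851 windows of 300 bases. *Nfkb2* and *Nfkbid* had several windows each, and 1 site of *Nfkb2* was counted in 2 of its windows. The members and all genes are therefore not compared on like numbers of windows. The matches in the other windows are given here to show how they vary around the same letters, with the distance of their first base from the start site.
Rel: GGGAAATCCCC
Nfkb2, shared by the later windows: GGGACTTTCC
Nfkb2, second window: GGAATGTCCC
Nfkbie: GGGGGATTCC
Nfkbid, first match: GGGACTTCCC
Nfkbid, second match: GGAATTCCCC

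The run in *Rel* was 92 bases before the start site and that in *Nfkbie* 106 bases before it. The matches in *Nfkbid* began 226 and 181 bases before its second start site. In *Nfkb2*, 1 site fell in 2 overlapping windows, 10 bases after one start site and 225 bases before the next, and the other began 236 bases before a start site. *Rela*, like *Nfkbib*, had no match in its window. A match is a description of letters and not evidence that NF-kB binds there, and no member was tested for its promoter.

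Depth was similar across libraries, with 4495902 to 6555699 reads assigned to genes and 19068 to 19979 genes detected per library. Between 59.4% and 64.5% of the reads placed at a single position were assigned to no annotated gene by HTSeq and were not counted. The strand setting of the counting is not given, so whether these reads lay outside exons or on the strand opposite to an exon cannot be told. *Satb1* itself was read at 868.3 and 983.6 CPM (reads per 1000000 reads of the genes that passed the low-count filter, with totals scaled by TMM, the factors of edgeR for differences in library composition) in WT and at 944.8 and 847.3 CPM in cKO, a log2 fold change of -0.05 with an adjusted p of 0.877, and the genotypes overlapped. Counts are per whole gene and do not resolve the exons that the deletion removes, so this value does not check the labels, and cKO below means the libraries labelled so. *Xist* had 5447 and 4235 reads in WT against 9 and 6 in cKO, and *Ddx3y*, on the Y chromosome, had 0 and 0 against 525 and 597. The sex pattern of the libraries therefore ran with genotype, and the genotype and the sex pattern cannot be told apart in any value below. The defining T cell markers were present in every library, with a summed level of the 8 CD4 T cell markers between 5836 and 6545 CPM, and 0 of the 8 were called by edgeR or DESeq2 (2 at an unadjusted p under 0.05 in edgeR, *Cd5* and *Trac*, against 19.1% of all tested genes).

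Counts were compared with edgeR (quasi-likelihood F test, two-sided, TMM-scaled libraries, Benjamini-Hochberg adjustment over all 12403 genes that passed the low-count filter), and fold changes are cKO over WT. All 10 members passed the filter. Of the tested genes, 533 (4.3%) had an adjusted p under 0.05, 291 of them higher and 242 lower in cKO, and 0 of the 10 members were among them. At an unadjusted p under 0.05 with a higher level in cKO stood 6 members, *Relb*, *Nfkb1*, *Nfkb2*, *Nfkbia*, *Nfkbie* and *Nfkbid*, against 9.72% of tested genes in that direction and 19.1% in either direction. A log2 fold change above 0 was found for 10 of 10 members and for 49.8% of tested genes. Both cKO libraries lay above both WT libraries for 8 of 10 members and for 24.8% of tested genes. The members' median log2 fold change was 0.29, beside a median of 0.00 over all tested genes. DESeq2, run on the same counts, put 1 member, *Nfkbia*, past an adjusted p of 0.05 among 3.02% of its 13109 tested genes. The members are 1 functional family with shared regulators, so these counts do not come from independent genes. In bulk RNA, a difference in the share of cells of a type and a difference in RNA per cell cannot be told apart.

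**Figure D1:**
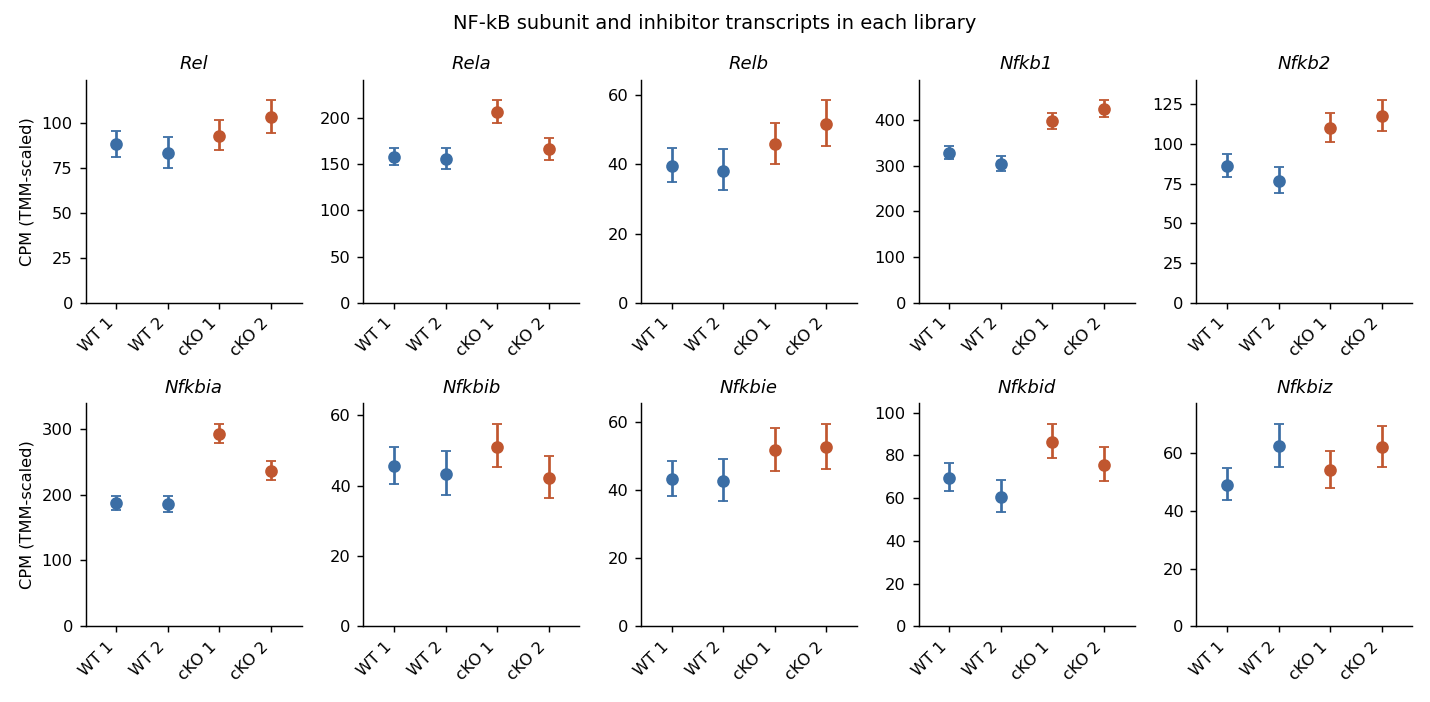
Level of each member in each library, in CPM on TMM-scaled library sizes (linear axes from 0; blue, WT; orange, cKO; bars, exact 95% Poisson intervals, which cover counting error only). Both cKO points lie above both WT points in 8 panels, and the genotypes overlap in *Nfkbib* and *Nfkbiz*.

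*Rel*, *Rela* and *Relb* encode c-Rel, RelA (p65) and RelB, the subunits that carry a transactivation domain. *Rel* (chr11:23736847-23770970, minus strand, GRCm38) was read at 88.1 and 83.4 CPM in WT and at 92.8 and 103.1 CPM in cKO. The libraries of the genotypes did not overlap, but cKO 1 and WT 1 lay within each other's counting intervals. The means were 85.7 ± 3.4 and 98.0 ± 7.3 CPM (SD, n = 2 each). The log2 fold change was 0.19 (95% interval -0.06 to 0.44) with an adjusted p of 0.399 in edgeR, so no difference was shown, and a difference of up to 1.36-fold lay within the interval. Without cKO replicate 2 it was 0.11, and over the other libraries left out it ran up to 0.26.

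*Rela* (chr19:5637483-5648130, plus strand) encodes the subunit of the common RelA:p50 dimer. It stood at 158.2 and 155.9 CPM in WT and at 206.9 and 166.2 CPM in cKO. The WT libraries were nearly equal, and the cKO libraries were apart from each other by more than their counting intervals, with cKO 1 the higher. On the log2 scale the difference was 0.25 (95% interval -0.02 to 0.52) and the adjusted p was 0.306 in edgeR. Without cKO replicate 2 it was 0.40 with an adjusted p of 0.00186, and without cKO replicate 1 it was 0.08, so its size rested on cKO 1.

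*Relb* (chr7:19606217-19629438, minus strand) encodes the subunit that pairs with p52 in the alternative pathway. Its levels were 39.6 and 38.1 CPM in WT and 45.7 and 51.7 CPM in cKO. Both cKO libraries were higher than both WT libraries, with cKO 2 on top. The difference was 0.32 on the log2 scale (95% interval 0.03 to 0.62), with an unadjusted p of 0.0365 and an adjusted p of 0.225 in edgeR.

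*Nfkb1* and *Nfkb2* encode the precursors p105 and p100, which are processed to p50 and p52 and which, before processing, also hold other subunits in the cytoplasm through their ankyrin repeats. *Nfkb1* (chr3:135584655-135691547, minus strand) had the highest count of the family. It was read at 328.1 and 304.7 CPM in WT and at 397.3 and 424.9 CPM in cKO. The gap between the genotypes was wider than the spread within either, and the counting intervals of the genotypes did not meet. The means were 316.4 ± 16.5 and 411.1 ± 19.5 CPM (SD, n = 2 each), and the log2 fold change was 0.38 (SE 0.10, 95% interval 0.15 to 0.60). The unadjusted p was 0.00472 and the adjusted p 0.0764 in edgeR. The adjusted p fell to 0.00190 without cKO replicate 1 and 0.00473 without cKO replicate 2, but it was 0.309 without WT replicate 1 and 0.643 without WT replicate 2.

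*Nfkb2* (chr19:46304320-46312385, plus strand) stood at 86.4 and 76.9 CPM in WT and at 109.9 and 117.5 CPM in cKO. Again neither cKO library reached down to the WT libraries, and the pairs were each close together. The means were 81.6 ± 6.8 and 113.7 ± 5.4 CPM (SD, n = 2 each). The log2 fold change was 0.47 (SE 0.11, 95% interval 0.22 to 0.73), with an unadjusted p of 0.00225 and an adjusted p of 0.0516 in edgeR. Leaving out cKO replicate 1 gave 0.52 with an adjusted p of 0.00627, and leaving out cKO replicate 2 gave 0.43 with an adjusted p of 0.0101. Without WT replicate 1 it was 0.57 (adjusted p of 0.11) and without WT replicate 2 it was 0.39 (adjusted p of 0.474). Of its exonic bases, 11.6% are shared with the antisense gene *AC114539.1* and 6.52% with *Psd* on the opposite strand. The library kit on the labels is not named as a strand-marking one, so reads in the shared bases cannot be assigned to 1 gene, and *Psd* itself had 59 to 111 reads against 343 to 577 for *Nfkb2*.

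*Nfkbia*, *Nfkbib* and *Nfkbie* encode IkB-alpha, IkB-beta and IkB-epsilon, the inhibitors that retain dimers in the cytoplasm. IkB-alpha is the one that is quickly destroyed and quickly made again after a signal. *Nfkbia* (chr12:55489410-55492647, minus strand) was at 187.4 and 185.3 CPM in WT and at 292.5 and 235.9 CPM in cKO. The WT libraries differed by less than counting error, both cKO libraries stood well above them, and the cKO libraries were themselves apart by more than their counting intervals. The means were 186.3 ± 1.5 and 264.2 ± 40.0 CPM (SD, n = 2 each). The log2 fold change was 0.50 (SE 0.12, 95% interval 0.24 to 0.77), the largest of the 10, with an unadjusted p of 0.00227 and an adjusted p of 0.0517 in edgeR. It was 0.34 (adjusted p of 0.0158) without cKO replicate 1 and 0.65 (adjusted p of 3.54e-07) without cKO replicate 2, but the adjusted p was 0.141 without WT replicate 1 and 0.370 without WT replicate 2, at log2 fold changes of 0.52 and 0.49. Among 12 alternatives, *Nfkbia* was past the threshold in 9, *Nfkb2* in 6 and *Nfkb1* in 4.

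*Nfkbib* (chr7:28758251-28767512, minus strand) stood at 45.6 and 43.2 CPM in WT and at 51.1 and 42.1 CPM in cKO. The cKO libraries lay on either side of the WT libraries. On the log2 scale the difference was 0.07 (95% interval -0.25 to 0.39, adjusted p of 0.839 in edgeR), which as a fold is anything between 0.84 and 1.31. Its sign turned without cKO replicate 1, to -0.08. Its exons share 14.5% of their bases with *Ccer2*, which had 1 or 2 reads per library, and 1.94% with *Sirt2*, which had 310 to 492 reads against 193 to 298 for *Nfkbib*, both on the opposite strand.

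*Nfkbie* (chr17:45555703-45563169, plus strand) had 43.3 and 42.6 CPM in WT and 51.6 and 52.5 CPM in cKO. Each pair lay within 1 CPM, and the genotypes did not overlap. The difference was 0.28 on the log2 scale (95% interval 0.01 to 0.55), with an unadjusted p of 0.0461 and an adjusted p of 0.253 in edgeR, and it ranged only from 0.26 to 0.30 when each library was left out in turn.

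*Nfkbid* and *Nfkbiz* encode IkB-NS and IkB-zeta, nuclear members of the inhibitor family that bind p50 or p52 on DNA and can raise or lower transcription. IkB-NS is known in T cells for a part in *Foxp3* induction and IL-2 production. *Nfkbid* (chr7:30421732-30428746, plus strand) was at 69.6 and 60.7 CPM in WT and at 86.5 and 75.7 CPM in cKO. The genotypes did not overlap, although the lower cKO library lay close to the higher WT library. Its log2 fold change was 0.31 (95% interval 0.03 to 0.60), with an unadjusted p of 0.0352 and an adjusted p of 0.221 in edgeR. It was 0.40 (adjusted p of 0.0288) without cKO replicate 2, 0.21 (0.338) without cKO replicate 1, 0.22 (0.827) without WT replicate 2 and 0.42 (0.397) without WT replicate 1.

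*Nfkbiz* (chr16:55811375-55838899, minus strand) was the member whose WT libraries differed most as a ratio (1.27), at 49.1 and 62.5 CPM, a gap wider than their counting intervals. The cKO libraries, at 54.1 and 62.1 CPM, lay between them. Its log2 fold change was 0.06 (95% interval -0.27 to 0.40, adjusted p of 0.860 in edgeR), and its sign turned without WT replicate 1, to -0.10, and without cKO replicate 2, to -0.03.

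**Figure D2:**
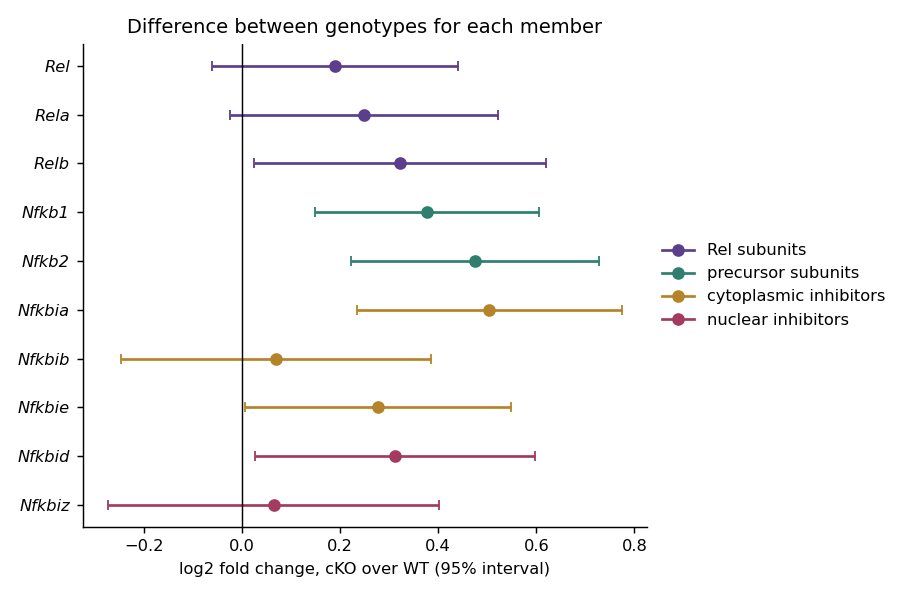
Log2 fold change of each member, cKO over WT, with its 95% interval from the edgeR fit of 2 against 2 libraries (colours, role of the protein). All 10 points lie above 0, and 6 of the 10 intervals do not include 0.

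The members were not led by the same cKO library. cKO 1 was the higher cKO library for *Rela*, *Nfkbia*, *Nfkbib* and *Nfkbid*, and cKO 2 for *Rel*, *Relb*, *Nfkb1*, *Nfkb2*, *Nfkbie* and *Nfkbiz*. The cKO libraries were apart by more than their counting intervals for *Rela* and *Nfkbia*, and the WT libraries for *Nfkbiz*. Together the members took 0.109% and 0.105% of gene counts in WT and 0.136% and 0.135% in cKO, so that as a family both cKO libraries stood above both WT libraries by nearly the same amount.

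To compare levels between genes, CPM was divided by the exonic length of each gene in kb. On this scale *Nfkbia* was the highest member in WT at 115.7 ± 0.91 CPM per kb (SD, n = 2), followed by *Rela* at 51.1 ± 0.51. *Nfkbid* (27.8 ± 2.7) and *Nfkb1* (26.2 ± 1.4) overlapped and could not be ordered. *Nfkbib* (20.5 ± 0.76), *Nfkb2* (17.8 ± 1.5) and *Nfkbie* (14.1 ± 0.17) came next in non-overlapping steps, and *Rel* (11.5 ± 0.45), *Nfkbiz* (11.1 ± 1.9) and *Relb* (9.80 and 10.2 in the single libraries) were lowest, the WT libraries of *Nfkbiz* spanning those of both others. In cKO, *Nfkbia* stood at 164.1 ± 24.8 and *Rela* at 60.7 ± 9.4 CPM per kb. Several places depended on the length used. Its annotated exons sum to 12.06 kb over all transcripts, while its longest protein-coding transcript is 4.12 kb, and with the latter *Nfkb1* came next to *Nfkbia* in WT at 76.9 ± 4.0 CPM per kb, above *Rela* at 57.8 ± 0.58. On that length *Relb* was no longer lowest, at 17.6 ± 0.49 beside *Nfkbie* at 17.6 ± 0.21, *Nfkbib* (21.6 ± 0.80) and *Nfkb2* (21.2 ± 1.8) overlapped, and *Rel* was lowest at 11.5 ± 0.45.

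**Figure D3:**
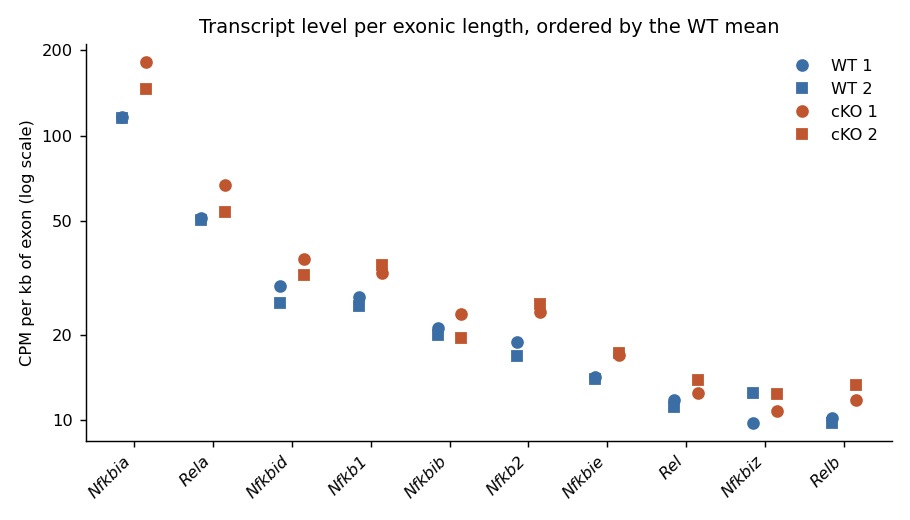
Level of each member in CPM per kb of exon (log axis), in the order of the WT mean (blue, WT; orange, cKO; circles, replicate 1; squares, replicate 2). *Nfkbia* lies above every other member in all 4 libraries, and *Rel*, *Nfkbiz* and *Relb* are the lowest in WT.

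Summed on this scale, the 5 subunits came to 119.5 and 113.8 CPM per kb in WT and 148.5 and 142.1 in cKO. The 5 inhibitors came to 191.1 and 187.3 in WT and 269.8 and 227.8 in cKO. Both sums were higher in the cKO libraries than in either WT library. The ratio of inhibitors to subunits was 1.60 and 1.65 in WT and 1.82 and 1.60 in cKO, or 1.62 ± 0.034 against 1.71 ± 0.15 (SD, n = 2 each), so the ratios overlapped and moved by less than the spread between the cKO libraries. *Nfkbia* alone made up 60.9% and 61.4% of the inhibitor sum in WT and 67.3% and 64.3% in cKO. These sums carry no test.

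The calls of the family near the threshold depended on the processing. Of 10 members, 2 were called with RLE scaling factors in place of TMM (*Nfkb2* and *Nfkbia*), where 4.38% of all tested genes were called. Upper quartile factors (4.37% of all tested genes called) and no scaling factors (4.39%) each gave 1, *Nfkbia*. Leaving out the low-count filter (5.72%) gave 3, *Nfkb1*, *Nfkb2* and *Nfkbia*, and a filter of 1 CPM in 2 libraries (4.03%) gave 0. Without WT replicate 1 or WT replicate 2 no member was called, with 3.62% and 1.39% of all tested genes called. Without cKO replicate 1 there were 3 (*Nfkb1*, *Nfkb2* and *Nfkbia*) of 10 and without cKO replicate 2 there were 5 (*Rela* and *Nfkbid* in addition), but there 11.7% and 13.8% of all tested genes were called. *Nfkbib* and *Nfkbiz* aside, each member stayed higher in cKO in all 12 alternatives.

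**Figure D4:**
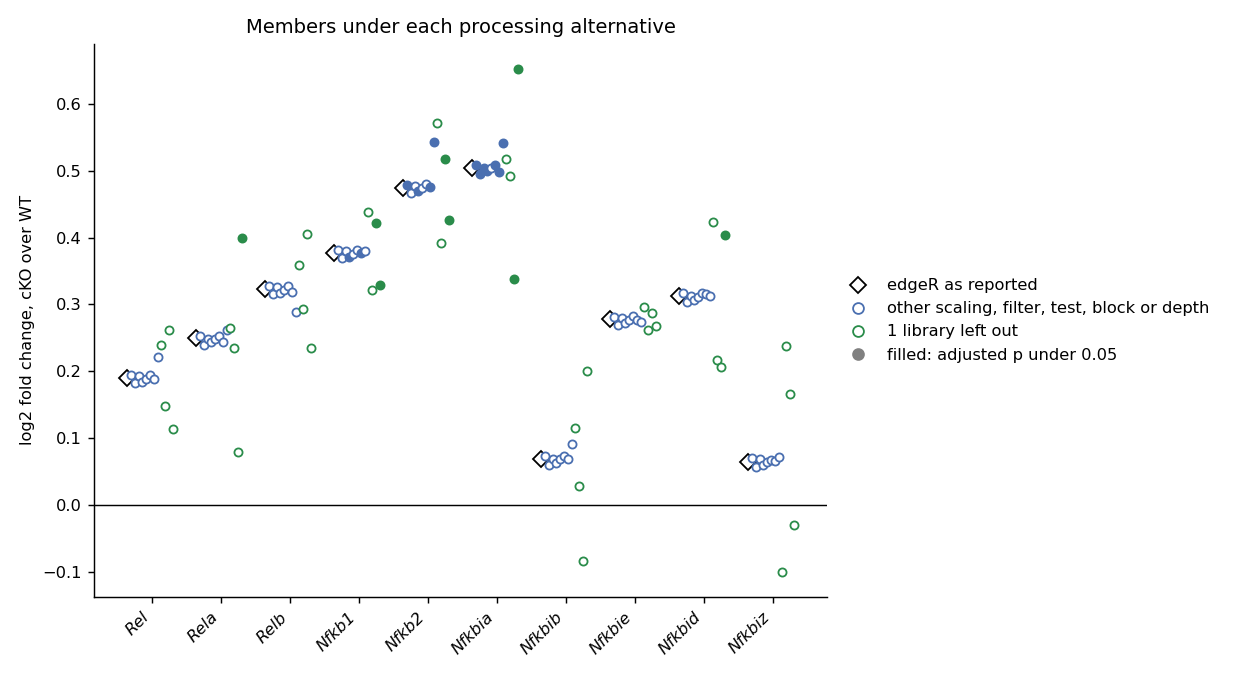
Log2 fold change of each member (cKO over WT) in the edgeR fit as reported (black diamonds), under other scalings, filters, tests, the block or equal depth (blue) and with 1 library left out (green), where filled symbols have an adjusted p under 0.05. The filled symbols lie in *Nfkb1*, *Nfkb2* and *Nfkbia*, with 1 each in *Rela* and *Nfkbid*, and points fall below 0 for *Nfkbib* and *Nfkbiz* when a library is left out.

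The genes around the family were examined as lists by role. The IKK kinases phosphorylate IkB, and the kinases above them activate IKK. Of 11 tested, 6 were higher and 5 lower in cKO, and the median log2 fold change was 0.02. None passed an adjusted p under 0.05 in edgeR (0) or DESeq2 (0), and 2 had an unadjusted p under 0.05 in edgeR, *Map3k8* and *Ikbkb*, a share near the 19.1% of all tested genes. The farthest from 0 was *Map3k8* (Tpl2, the kinase held by p105) at 0.86, from 5.63 ± 0.041 to 10.2 ± 0.35 CPM (SD, n = 2 each), with an adjusted p of 0.109. *Ikbkb*, the catalytic subunit IKK-beta, was at 0.29 (adjusted p of 0.257), and *Tab2*, an adaptor of the kinase TAK1, at 0.21 (adjusted p of 0.266). *Ikbkb* moved with the library left out, to 0.42 (adjusted p of 0.00345) without cKO replicate 1, 0.14 (0.331) without cKO replicate 2 and 0.20 (0.806) without WT replicate 1.

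Among 11 TNF receptor adaptors, 6 were higher and 5 lower, with a median of 0.01. *Traf5*, an adaptor of costimulatory TNF receptors, was the 1 gene called, against 4.3% of all tested genes, and it fell, with a log2 fold change of -0.63 (adjusted p of 0.0267). Its levels were 65.3 ± 4.9 CPM in WT and 42.4 ± 2.0 CPM in cKO (SD, n = 2 each). At an unadjusted p under 0.05 stood 2 of the list, *Traf2* and *Traf5*, near the 19.1% of all tested genes. The call was lost with DESeq2 (adjusted p of 0.0892), without WT replicate 1 (0.190) and without WT replicate 2 (0.142). *Traf2* was at 0.30 (adjusted p of 0.244) and *Birc3*, a ubiquitin ligase, at 0.17 (adjusted p of 0.449), and both moved with the library left out. They were 0.21 and 0.07 without cKO replicate 1 and 0.38 and 0.26 without cKO replicate 2. Without WT replicate 1 they were 0.42 and 0.17, and without WT replicate 2 they were 0.20 and 0.17.

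Among the negative regulators, 13 of 14 were tested, 9 were higher and 4 lower, and the median was 0.07, or 0.21 without cKO replicate 1 and 0.19 without WT replicate 2. At an unadjusted p under 0.05 in edgeR stood 2 of the 13, *Tnfaip3* and *Nkiras2*, near the 19.1% of all tested genes. *Tnfaip3* (A20, the ubiquitin-editing enzyme that ends NF-kB signalling and is itself an NF-kB target) was the 1 gene called, against 4.3% of all tested genes. It was read at 91.2 and 84.5 CPM in WT and at 135.3 and 134.6 CPM in cKO. The genotypes were far apart and the cKO libraries nearly equal. The log2 fold change was 0.62 (95% interval 0.38 to 0.85) with an adjusted p of 0.0134 in edgeR, and the adjusted p was 0.210 without WT replicate 2. *Tnip2*, a partner of A20, was at 0.40 (adjusted p of 0.395, and 0.15 without WT replicate 1 and 0.65 without WT replicate 2), and *Nkiras2*, a Ras-like inhibitor of IkB-beta degradation, at -0.35 (adjusted p of 0.203).

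Of 20 textbook NF-kB target genes, 14 were tested, with 7 higher and 7 lower and a median of 0.07, or 0.15 without WT replicate 1 and -0.01 without WT replicate 2. Called higher were *Traf1*, a survival adaptor (0.63, adjusted p of 0.0184), *Cd83*, a surface marker of activation (0.97, adjusted p of 0.0296), and *Cd69*, an early activation marker that restrains exit from lymphoid tissue (0.79, adjusted p of 0.0292). Called lower was the chemokine gene *Ccl5* (-1.38, adjusted p of 0.0207). Of all tested genes, 4.3% were called in either direction. At an unadjusted p under 0.05 in edgeR stood 7 of the list, against 19.1% of all tested genes. These were the called genes with *Irf4* (0.86), *Icam1* (-0.37) and *Myc* (-0.46). So the list was divided in direction. The size of *Cd69* rested on cKO 1, at 0.50 without cKO replicate 1 and 1.03 without cKO replicate 2. *Traf1* was not called without WT replicate 1 (adjusted p of 0.0801) or WT replicate 2 (0.129), nor were *Cd83* (0.219) and *Cd69* (0.193) without WT replicate 2. DESeq2 gave *Cd83* an adjusted p of 0.0679, and it called 4 of the list, with *Irf4* in place of *Cd83*, against 3.02% of its tested genes.

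Immediate early and heat shock genes, which stress and handling of cells are known to induce, were read as well. Of 9 tested immediate early genes, 5 were higher and 4 lower with a median of 0.12, or -0.06 without cKO replicate 1 and 0.26 without cKO replicate 2. By edgeR and by DESeq2 0 were called, and 2, *Fos* and *Junb*, had an unadjusted p under 0.05 in edgeR, again near the 19.1% of all tested genes. The farthest from 0 were *Jun* at 0.57 (adjusted p of 0.332), *Fos* at -0.50 (adjusted p of 0.260) and *Fosb* at -0.38 (adjusted p of 0.527). None of these sizes was steady, since *Jun* ran from 0.28 without WT replicate 1 to 0.86 without WT replicate 2, *Fos* from -0.75 to -0.25 and *Fosb* from -0.08 to -0.59 in the same order. Heat shock genes differed far more. Of 7, 6 were tested, and all 6 were called and higher in cKO, with a median of 0.98, where 4.3% of all tested genes were called in either direction. The summed level of the 7 was 1143 and 982.3 CPM in WT and 2068 and 1908 CPM in cKO. *Hsph1* was at 1.74 (adjusted p of 0.000106) and *Dnaja1* at 1.01 (adjusted p of 0.00147), both co-chaperones of HSP70. *Hspa1b*, an inducible HSP70, was at 2.43 (adjusted p of 0.0440), on only 5 and 7 reads in WT and 43 and 18 in cKO. *Dnajb1* was at 0.95 (adjusted p of 0.0233), *Hspa8* at 0.72 (adjusted p of 0.0155) and *Hsp90aa1* at 0.69 (adjusted p of 0.00738). *Hspa1a*, the gene that did not pass the filter, overlapped between genotypes, at 0.612 and 1.12 CPM in WT and 1.91 and 0.213 CPM in cKO. Without WT replicate 2, *Hspa1b* (0.104), *Dnajb1* (0.155), *Hspa8* (0.320) and *Hsp90aa1* (0.11) had adjusted p values over 0.05. *Hspa1b* also lost its call without WT replicate 1 (0.115) and without cKO replicate 1 (0.0963), with DESeq2 (0.0798) and with libraries thinned to equal depth (0.0501). The heat shock sum was higher in the same libraries as the NF-kB members, and its part in the members' values was not tested.

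**Figure D5:**
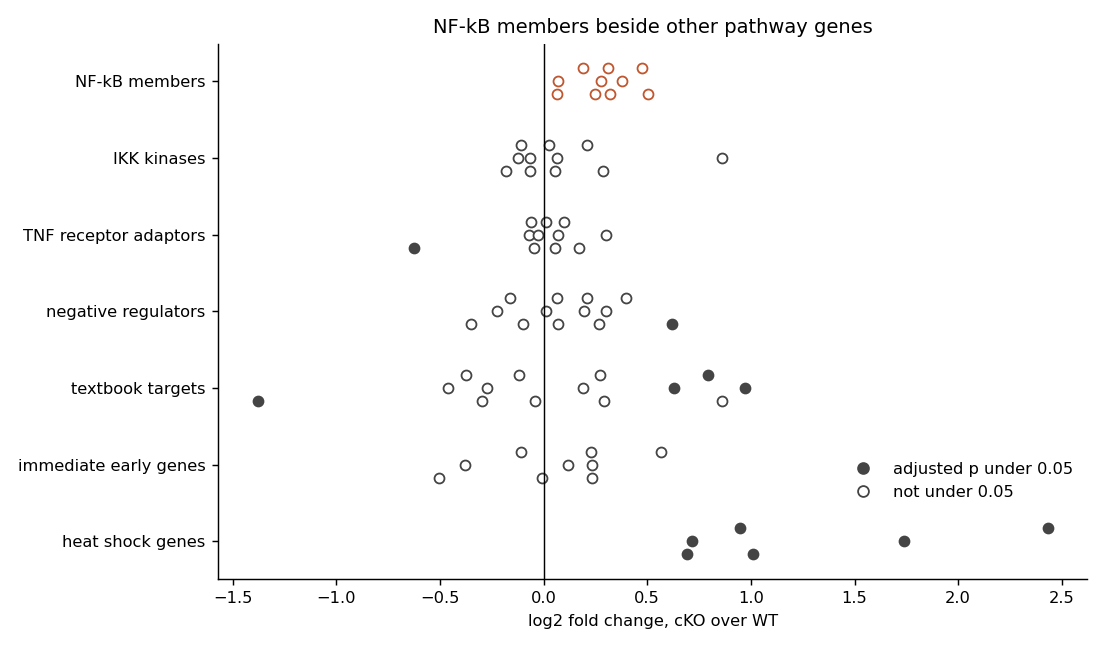
Log2 fold change (cKO over WT) of each tested gene in the NF-kB family (orange) and in the pathway lists (grey), 1 row per list, where filled symbols have an adjusted p under 0.05 and the vertical spread within a row has no meaning. The NF-kB members lie between 0.06 and 0.50, the kinase and adaptor lists straddle 0, and the heat shock genes lie at 0.69 and above.

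Markers of cells within or beside the CD4+ gate also ran with genotype. Of all tested genes, 49.8% had a log2 fold change above 0 and 4.3% were called. All 6 tested Treg markers were higher in cKO and 4 of them were called, with a summed level of 457.8 and 383.8 CPM in WT and 834.1 and 1045 CPM in cKO. *Foxp3*, the defining Treg factor, had a log2 fold change of 1.86 (adjusted p of 0.000447 in edgeR). Within that sum it stood at 141.6 and 120.5 CPM in WT and at 405.3 and 546.9 CPM in cKO. The paper reports *Foxp3* derepressed in conventional CD4+ T cells that lack SATB1 and do not gain the Treg programme. The sum is therefore not a measure of Tregs alone in cKO. *Ikzf2* overlapped between genotypes, at 77.4 and 64.1 CPM in WT and 70.3 and 145.8 CPM in cKO. Of 9 B cell markers, 5 were tested, 5 were higher and 2 called, and their summed level was 39.8 and 47.1 CPM in WT against 195.5 and 77.6 CPM in cKO. The same sum for 10 myeloid markers, of which 8 were tested, 7 higher and 4 called, was 29.1 and 37.4 CPM against 106.9 and 62.3 CPM. Among those called, *S100a9* had 0 and 1 reads in WT against 51 and 24 in cKO, and *Ltf* 0 and 1 against 36 and 29. No B cell or myeloid marker was at 0 in every library. Without WT replicate 2 the calls of *Ctla4* (adjusted p of 0.401), *Nrp1* (0.160) and *Tnfrsf18* (0.142) among the Treg markers, of *Cd74* (0.0738) and *Pax5* (0.138) among the B cell markers and of *Cybb* (0.11) among the myeloid markers were lost. Without WT replicate 1 those of *Nrp1* (0.0557), *Tnfrsf18* (0.165) and *Cybb* (0.114) were lost, and without cKO replicate 1 that of *Pax5* (0.0919). With DESeq2, *Nrp1* (0.0967), *Ctla4* (0.0537), *Cd74* (0.159) and *Cybb* (0.11) were not called, nor was *Cybb* with thinned libraries (0.0534). The log2 fold changes of *Cd74*, 1.71 with all libraries, and *Pax5*, 3.001, were 0.91 and 1.93 without cKO replicate 1. cKO 1 had the higher B cell and myeloid sums and cKO 2 the higher Treg sum. Of the CD8 T cell markers, *Cd8b1* fell, from 42.4 and 51.98 CPM in WT to 27.4 and 22.5 CPM in cKO (adjusted p of 0.0201, and 0.156 without WT replicate 2). *Cd8a*, at 4.25 to 6.86 CPM over the 4 libraries, overlapped between genotypes (log2 fold change of -0.07, adjusted p of 0.941), and the sum of both was 47.7 and 58.5 CPM against 34.3 and 26.8 CPM. The 4 NK cell markers summed to 43.8 and 33.8 CPM against 13.7 and 17.4 CPM, and nearly all of that was *Eomes*, a factor also made by T cells, which fell from 39.8 and 32.3 CPM to 11.1 and 17 CPM (adjusted p of 0.0113). *Klrb1c*, the other tested marker, was at 0.425 to 3.67 CPM with overlapping genotypes (adjusted p of 0.437), *Ncr1* was at 0.572 CPM or less and *Klra8* at 0 in all 4 libraries. The part of these cells in the levels of the NF-kB members was not tested.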

How the data were processed

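RNA of sorted splenic CD4+ T cells was sequenced by the authors as 50-base reads with an NEBNext kit, Ultra per the labels and Ultra II per the methods. Per the labels and methods, reads were aligned to mm10 with HISAT2 2.1.0 and the deposited values are raw read counts per gene symbol from HTSeq (0.11.1 in the submitters' processing notes), 1 table per library. The strand setting is not given in the sources used here. The 5 HTSeq summary rows, which held 66.8% to 70.5% of all rows' reads, were left out. Counts were tested with edgeR 4.0.16 (filterByExpr, TMM, quasi-likelihood F test, genotype only, all 4 libraries) in R 4.3.3, and with DESeq2 1.42.0 as an alternative. CPM uses TMM-scaled totals of the 12403 genes that passed the filter, and Poisson intervals and a floor of 3 counts cover counting error only. Scripts were tested on simulated data. Exonic lengths and positions came from GENCODE annotation on GRCm38. The replicates of a genotype differed by more than sampling noise (chi-square per degree of freedom 3.00 in WT and 7.07 in cKO) and were kept as separate samples. The text names all 10 members and, from each pathway list, the called genes or, if fewer than 3 were called, the tested genes with the largest absolute log2 fold change up to 3 in all. Members of the marker lists, and genes for checking the labels, are named where a value turns on them. The result of 1 pathway list is not reported here. The members and lists were chosen with earlier results of these data known. Alternatives were other scalings, filters, DESeq2, a replicate block, equal depth, a stricter threshold and leaving out each library.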

Additional observations from a re-analysis of the deposited data

How the results depend on the processing

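With 2 libraries per genotype, a permutation of labels for 1 gene cannot give a two-sided p below 0.333, so every call rests on the spread shared across genes. The number of members called, 0 as reported, was 1 with DESeq2 (3.02% of all tested genes called), 1 with upper quartile factors (4.37%), 1 with total counts without scaling factors (4.39%), 2 with RLE factors (4.38%), 2 with libraries thinned to 4495902 reads (4.76%), 3 with no low-count filter (5.72%) and 0 to 5 when each library was left out (1.39% to 13.8%). It stayed 0 with 1 CPM in 2 libraries and at an adjusted p under 0.01. The number of all tested genes called, 533 as reported, was 1367 of 23880 with no low-count filter, 153 at an adjusted p under 0.01 and 180 to 1790 when each library was left out, the 180 without WT replicate 2. With 1 library left out, the lone library of its genotype is assumed to vary like the other pair. With the replicate block, 3 members (*Nfkb1*, *Nfkb2* and *Nfkbia*) and 1165 genes (9.39%) were called. Deviations of same-numbered libraries correlated at 0.0642, so the numbers were not taken as a pairing. Of 120 member values under alternatives, 96 kept direction and call, 21 gained a call and 3 changed sign. The sign changes came from leaving out a library, with log2 fold changes of -0.083 to 0.20 for *Nfkbib*, -0.10 to 0.24 for *Nfkbiz* and, among the markers, -0.46 to 0.23 for *Cd8a*. The median log2 fold change of the TNF receptor adaptors was -0.01 with thinned libraries and -0.05 without WT replicate 1, that of the immediate early genes -0.06 without cKO replicate 1, that of the textbook targets -0.01 without WT replicate 2 and that of the IKK kinases -0.0071 without cKO replicate 2. The inhibitor to subunit ratio differed by 0.088 between genotypes, by 0.0042 without length, by 0.040 with the longest protein-coding transcript (chosen after seeing the data) and by 0.0995 with thinned libraries, each within its spread. The causes of these changes were not tested.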

Other observations

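TNF family receptors feed into NF-kB from the cell surface. Of 9 such genes, 7 were tested, 6 were higher and 1 lower in cKO, 2 were called (4.3% of all tested genes were) and the median log2 fold change was 0.19, or 0.35 without cKO replicate 1 and 0.13 without WT replicate 2. *Tnfrsf4* (OX40, a costimulatory receptor of activated T cells and Tregs) was at 33.7 ± 5.5 CPM in WT and 57.3 ± 3.4 CPM in cKO (SD, n = 2 each), a log2 fold change of 0.75 with an adjusted p of 0.0264 in edgeR. *Tnfrsf18* (GITR, also counted among the Treg markers) was at 62.3 ± 4.8 and 95.4 ± 6.8 CPM, a log2 fold change of 0.62 with an adjusted p of 0.0232. *Tnfrsf1b* (TNFR2) was at 0.39 with an adjusted p of 0.0968. The call of *Tnfrsf4* was lost without WT replicate 2 (adjusted p of 0.273), and that of *Tnfrsf18* without WT replicate 1 (0.165) or WT replicate 2 (0.142). *Tnfrsf1b* was called without cKO replicate 1 (0.0130) or cKO replicate 2 (0.0467) and with the replicate block (0.0355). The summed Treg marker level, given above, ran with these receptors. In cKO, *Foxp3* made up 405.3 of 834.1 and 546.9 of 1045 CPM of that sum. The paper reports *Foxp3* derepressed in conventional CD4+ T cells, so the sum is not a measure of Tregs alone. Its part in the values of the receptors was not tested.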
